A study of Mus musculus with 4 samples.

Results

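The genes described here encode the chains of the αβ T cell receptor, its CD3 signaling complex and the CD8 coreceptor. They are 10 genes of the 55367 gene rows in each count table, namely Cd3d, Cd3e, Cd3g, Cd247, Trac, Trbc1, Trbc2, Trbv12-1, Cd8a and Cd8b1, and were found by exact symbol. They had been chosen on their counts in these same libraries, with the contrast between the libraries labeled KO and WT in view. Their levels and differences between the groups are therefore a description and carry no test.

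RNA was sequenced from 4 mouse libraries, of which 2 were labeled WT and 2 KO, from a study of T cells in tumors and of Satb1, the gene of a chromatin-organizing protein of T cells. All 4 came from dissociated tumors of B16-F10, a transplantable mouse melanoma line, and the labels state a sort for cells carrying CD45.2, a surface marker of blood-derived cells, together with CD8. The sample labels gave no age, sex or allele and no Cre driver for the KO libraries, while the design text of the series names floxed Satb1 with ThPOK-cre or E8I-cre, Cre lines that act in CD4+ and CD8+ lineage T cells, respectively. Nothing in the labels says whether a library came from 1 mouse or from several.

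The T cell receptor binds peptide on MHC molecules through an α and a β chain, each with a variable part joined by rearrangement of V and J segments (and D segments in the β chain) to a constant part. The receptor chains have no signaling motif of their own and depend on the CD3 γ, δ, ε and ζ chains, whose cytoplasmic ITAM motifs are phosphorylated by Lck once the receptor is engaged. CD8, an α and β heterodimer on most cytotoxic T cells, binds MHC class I and brings Lck to the receptor, whereas an α homodimer also occurs on some dendritic and other cells.

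The members lie in 5 places of the genome (GRCm38, GENCODE M21). Cd3g (chr9:44969572-44980431, minus strand), Cd3d (chr9:44981786-44987339, plus strand) and Cd3e (chr9:44998740-45009627, minus strand) form a cluster in which Cd3g and Cd3d are transcribed away from each other, 1354 bases apart, and Cd3e ends 11400 bases beyond Cd3d. Trbc1 (chr6:41538218-41539881) and Trbc2 (chr6:41546730-41548352) are the β constant genes, separated by 6848 bases on the plus strand, and Trbv12-1 (chr6:41113550-41114067, plus strand) is a β V segment 424150 bases before Trbc1. Cd8b1 (chr6:71322788-71337494) and Cd8a (chr6:71373427-71379173) are on the same chromosome and strand, 35932 bases apart. Trac (chr14:54220521-54224206, plus strand) and Cd247 (chr1:165788681-165877277, plus strand) stand alone. Of the exonic bases of Cd247, 60.3% also belong to Gm16565 or Pou2f1, and 3.31% of those of Cd3e to Gm48719. The strand setting of the counting was not given in the sources used here, so reads in these stretches cannot be assigned with certainty.

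Several results turn on how well reads of near-identical copies can be told apart, so the sequences of Trbc1 and Trbc2 are shown where they differ. Their first coding exon has 375 bases with 1 difference (99.7% identical), and the following coding exons, 2 to 4, have 143 bases with 22 differences (84.6% identical). The joined coding bases of exons 2 to 4 follow, 5′ to 3′ on the plus strand of GRCm38, with the differing bases in capitals, within chr6:41539114-41539662 for Trbc1 and chr6:41547610-41548178 for Trbc2.
Trbc1: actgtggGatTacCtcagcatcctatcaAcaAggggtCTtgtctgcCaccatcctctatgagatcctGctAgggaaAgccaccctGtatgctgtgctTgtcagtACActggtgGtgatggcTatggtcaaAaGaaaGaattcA
Trbc2: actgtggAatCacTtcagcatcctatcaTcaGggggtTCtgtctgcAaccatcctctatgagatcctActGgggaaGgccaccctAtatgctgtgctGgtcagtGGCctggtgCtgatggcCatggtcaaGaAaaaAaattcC
Reads within the first exon can rarely be assigned to 1 of the 2 genes, so the split between Trbc1 and Trbc2 rests mainly on reads that reach the later exons or the untranslated ends.

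Trbv12-1 is shown in the same way beside Trbv12-2, a neighbor of the same V family. Their second coding exons have 293 bases with 32 differences (89.1% identical). The first 150 bases of that exon, chr6:41113775-41113924 for Trbv12-1 and chr6:41119072-41119221 for Trbv12-2, are printed with differing bases in capitals.
Trbv12-1: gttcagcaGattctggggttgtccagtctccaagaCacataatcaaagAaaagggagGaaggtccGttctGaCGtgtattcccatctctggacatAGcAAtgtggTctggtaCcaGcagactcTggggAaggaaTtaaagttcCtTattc
Trbv12-2: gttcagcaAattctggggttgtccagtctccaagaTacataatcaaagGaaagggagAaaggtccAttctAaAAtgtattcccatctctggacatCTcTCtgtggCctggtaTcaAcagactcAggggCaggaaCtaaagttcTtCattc
Trbv12-2 had 1 count in WT 2, 2 in KO 2 and none in WT 1 and KO 1.

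The libraries held 4017875 to 5382915 counts on genes, and 3 counts corresponded to 0.521 to 0.897 normalized CPM (counts scaled to a common library total). Satb1 itself was not lower under the KO label, with 7 counts in WT 1 and 5 in WT 2 but 131 in KO 1 and 55 in KO 2, so WT and KO below name the labels only, and every direction refers to them. The 10.3-fold difference of Satb1 was within the range of the members described below, and per 100 counts on Cd3d, Cd3e and Cd3g it had 6.03 and 2.78 counts in WT and 4.07 and 2.82 in KO. Which Cre line these libraries carry was not given in the labels, and the cause of the Satb1 counts was not tested. The female-specific noncoding RNA Xist gave 435 and 216 reads under the WT label against 0 and 3 under KO, while the Y-linked Ddx3y had 0 and 0 against 188 and 81. The sex of the cells and the genotype label therefore cannot be told apart. Markers of macrophages, cells that a CD8 sort should remove, took 2.12% to 3.64% of the gene counts of each library.

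The members were scarce in both libraries labeled WT and well covered in both labeled KO. Together they held 252 and 441 counts under the WT label and 10917 (KO 1) and 5560 (KO 2) under the KO label. These sums were 0.00627%, 0.0103%, 0.244% and 0.103% of the gene counts. All 10 members passed the filter on low counts, and both libraries labeled KO lay above both labeled WT for all 10, against 25.3% of the 11837 genes tested. Since the members were chosen on this contrast, the count is not evidence about them. By the edgeR quasi-likelihood test, which is used below for genes that are not members, 0.549% of all genes tested passed an adjusted p of 0.05 as higher in KO and 0.0253% as lower (65 and 3 genes). That split depended on the libraries, with 725 higher and 524 lower without KO 2. In each fit that leaves out a library, 1 group is a single library that is assumed to vary like the other group, so such a p rests on the spread of 2 libraries alone. In bulk RNA, fewer T cells and less receptor RNA per T cell cannot be told apart.

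**Figure D1:**
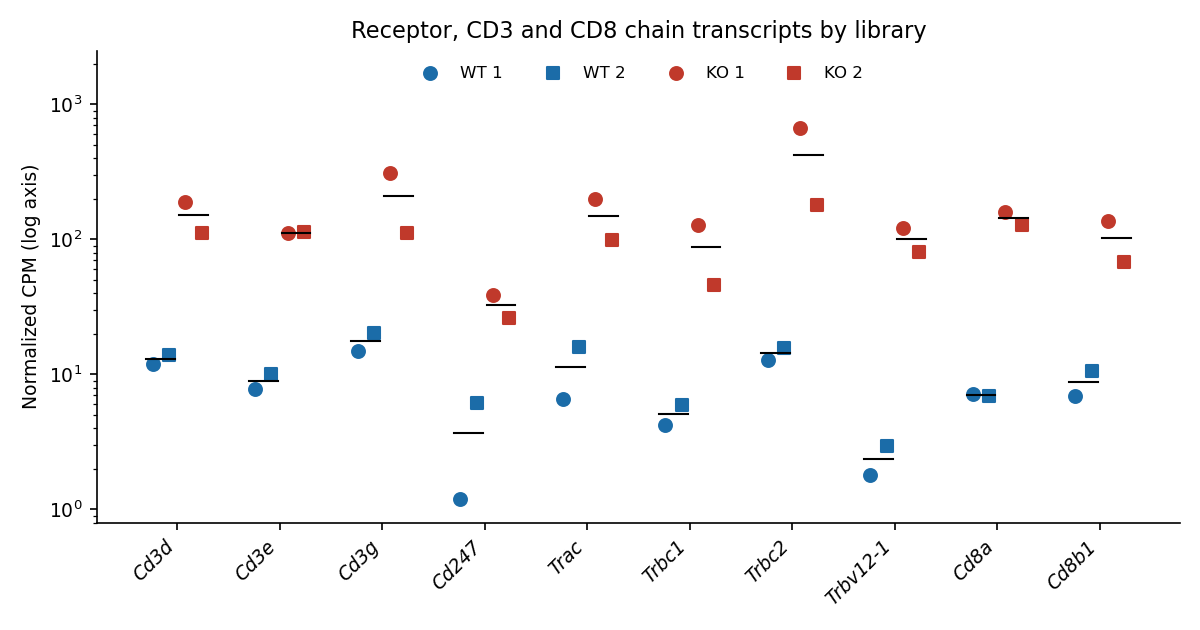
Normalized CPM of the 10 members in each library, on a log axis, with a point per library (circles for replicate 1, squares for replicate 2, blue for WT and red for KO) and a black line at each group mean. For all 10 genes both KO points lie above both WT points, and KO 1 lies above KO 2 for 9 of them, Cd3e being the exception.

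Among the CD3 chains, Cd3d, the δ chain, had 40 and 57 counts in WT 1 and WT 2 and 1003 and 643 in KO 1 and KO 2. Its mean was 13.0 ± 1.47 CPM (SD, n = 2) in WT and 151 ± 55.3 CPM (SD, n = 2) in KO, an 11.6-fold difference. The groups lay far apart, and KO 1 stood at 1.70 times KO 2.

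Cd3e, the ε chain, which pairs with both the δ and the γ chain, had 26 and 41 counts in WT and 585 and 659 in KO. The means were 8.94 ± 1.65 and 113 ± 2.60 CPM (SD, n = 2 each), a 12.6-fold difference. It was the only member whose level in KO 2 was not below that in KO 1, the ratio of KO 1 to KO 2 being 0.968. Cd3g, the γ chain, had 50 and 82 counts in WT and 1632 and 648 in KO. Its means were 17.6 ± 3.71 and 211 ± 139 CPM (SD, n = 2 each), 12.0-fold apart, with KO 1 at 2.75 times KO 2. The neighbors Cd3g and Cd3d thus shared the order of the libraries but not the spread between the KO libraries.

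Cd247, the ζ chain, which carries more ITAM motifs than the other CD3 chains, had the fewest counts of the members over the 4 libraries together. It had 4 and 25 counts in WT and 205 and 150 in KO, or 3.68 ± 3.51 and 32.4 ± 9.02 CPM (SD, n = 2 each), an 8.82-fold difference. WT 2 was 5.15 times WT 1, the widest spread between the WT libraries among the members. Its fitted log2 fold change was 3.10 (SE 0.74), and it was 4.67 without WT 2 and 2.33 without WT 1.

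The constant gene of the receptor α chain, Trac, had 22 and 65 counts in WT and 1056 and 573 in KO. The means were 11.3 ± 6.67 and 150 ± 71.0 CPM (SD, n = 2 each), 13.3-fold apart. The libraries of each group differed in level, with KO 1 at 2.01 times KO 2. The fitted log2 fold change was 3.72 (SE 0.61), and it was 4.44 without WT 2 and 3.11 without KO 1.

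Of the β constant genes, Trbc1 had 14 and 24 counts in WT and 677 and 267 in KO, or 5.05 ± 1.22 and 87.3 ± 57.8 CPM (SD, n = 2 each), a 17.3-fold difference. Trbc2 had 43 and 64 counts in WT and 3550 and 1035 in KO, or 14.3 ± 2.06 and 426 ± 348 CPM (SD, n = 2 each), a 29.8-fold difference. Trbc2 was the member with the most counts in KO 1 and KO 2, and it varied most between them, KO 1 being 3.74 times KO 2. Its log2 fold change was 3.64 without KO 1 and 5.51 without KO 2, in place of 4.89 (SE 0.72).

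Trbv12-1, the variable part of some β chains, had 6 and 12 counts in WT and 643 and 463 in KO. The means were 2.38 ± 0.822 and 101 ± 29.2 CPM (SD, n = 2 each). The ratio of 42.5 was the highest of the 10 members. It rests on 18 counts in both WT libraries together, although each lay above 3 counts.

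The CD8 coreceptor genes were in the same range as the CD3 genes. Cd8a, the α chain, had 24 and 28 counts in WT and 843 and 733 in KO, with means of 7.04 ± 0.196 and 143 ± 22.8 CPM (SD, n = 2 each), 20.4-fold apart. Its replicates were close in both groups, and it was the only member for which WT 2 was not above WT 1. Cd8b1, the β chain, had 23 and 43 counts in WT and 723 and 389 in KO, or 8.74 ± 2.63 and 102 ± 49.0 CPM (SD, n = 2 each), 11.7-fold apart. The CD8 transcripts were thus scarce in the libraries labeled WT although all 4 were labeled as sorted for CD8.

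The fitted log2 fold changes of the 10 members ran from 3.10 for Cd247 to 5.38 (SE 0.58) for Trbv12-1, with a median of 3.68. Over all genes tested the median was 0.05, and the 5th and 95th percentiles were -1.20 and 2.24. The members were chosen on this contrast, so their distance from these values is a description only. The members' median was 3.15 without KO 1 and 4.28 without WT 2, the lowest and highest among the settings tried. Without KO 1 the values of Cd3g and Trbc1 were 2.67 and 3.18 in place of 3.58 (SE 0.60) and 4.10 (SE 0.64), and that of Cd8b1 was 2.93 in place of 3.54 (SE 0.56).

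To compare genes with each other, CPM was divided by the length of the merged exons in kilobases, a length that includes transcripts with retained introns. On this scale Trbc2 ranked first and Cd247 last in each of the 4 libraries. The length of Cd247 includes the 60.3% of its bases shared with other genes, so its place here and below depends on whether reads there were counted. In WT the means fell from 20.7 ± 2.97 for Trbc2 through 12.1 ± 7.14 for Trac, 7.16 ± 0.812 for Cd3d, 6.74 ± 1.63 for Trbc1, 6.11 ± 2.11 for Trbv12-1, 5.89 ± 1.77 for Cd8b1 and 5.38 ± 1.14 for Cd3g to 2.19 ± 0.403 for Cd3e, 1.94 ± 0.0540 for Cd8a and 0.690 ± 0.659 for Cd247 (CPM per kilobase, SD, n = 2). Neighbors in this order whose libraries did not overlap were Trbc2 over Trac, Cd3g over Cd3e and Cd8a over Cd247, and all other neighbors overlapped.

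In KO the order was Trbc2 with 615 ± 503, Trbv12-1 with 260 ± 75.1, Trac with 160 ± 75.9, Trbc1 with 117 ± 77.2, Cd3d with 83.1 ± 30.5, Cd8b1 with 68.9 ± 33.1, Cd3g with 64.5 ± 42.5, Cd8a with 39.4 ± 6.28, Cd3e with 27.6 ± 0.638 and Cd247 with 6.08 ± 1.69 CPM per kilobase (SD, n = 2). Only Cd8a over Cd3e and Cd3e over Cd247 did not overlap. The first 5 genes had the same rank in KO 1 and KO 2, so their ranges overlapped because KO 1 lay above KO 2, while the ranks of Cd8b1, Cd3g and Cd8a differed between the 2 libraries.

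Ratios between chains do not depend on library size. Exact 95% intervals are given for single libraries and cover counting error only. Among the members that define the receptor complex, the make-up of the 4 CD3 transcripts was alike in the groups for Cd3d, which took 33.3% and 27.8% of the CD3 counts in WT 1 and WT 2 and 29.3% and 30.6% in KO 1 and KO 2. Cd3e and Cd3g differed between the KO libraries instead. Cd3e took 17.1% (interval 15.8% to 18.4%) in KO 1 and 31.4% (29.4% to 33.4%) in KO 2, with 21.7% (26 of 120 counts) and 20% (41 of 205) in WT between them. Cd3g took 47.6% (46.0% to 49.3%) in KO 1 and 30.9% (28.9% to 32.9%) in KO 2, with 41.7% (50 of 120) and 40.0% (82 of 205) in WT between them. Cd247 took 3.33% and 12.2% in WT and 5.99% and 7.14% in KO, so that the groups overlapped.

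The 2 CD8 chains were not in a fixed ratio. Cd8a made up 51.1% (36.1% to 65.9%) and 39.4% (28.0% to 51.7%) of the CD8 counts in WT 1 and WT 2 and 53.8% (51.3% to 56.3%) and 65.3% (62.5% to 68.1%) in KO 1 and KO 2. The group means were 45.3% ± 8.22 and 59.6% ± 8.13 (SD, n = 2 each). The groups did not overlap, but the interval of WT 1 includes the values of KO 1 and KO 2. An exact two-sided permutation test of 2 against 2 libraries cannot go below p = 0.333.

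Trbc1 took the smaller part of the β constant counts in every library, 24.6% (14.1% to 37.8%) and 27.3% (18.3% to 37.8%) in WT against 16.02% (14.9% to 17.2%) and 20.5% (18.3% to 22.8%) in KO. The means were 25.9% ± 1.92 and 18.3% ± 3.18 (SD, n = 2 each), and the groups did not overlap. The interval of each WT library reaches below the value of KO 2. Trac made up 27.8% and 42.5% of the α and β constant counts in WT and 19.99% and 30.6% in KO, which overlapped.

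**Figure D2:**
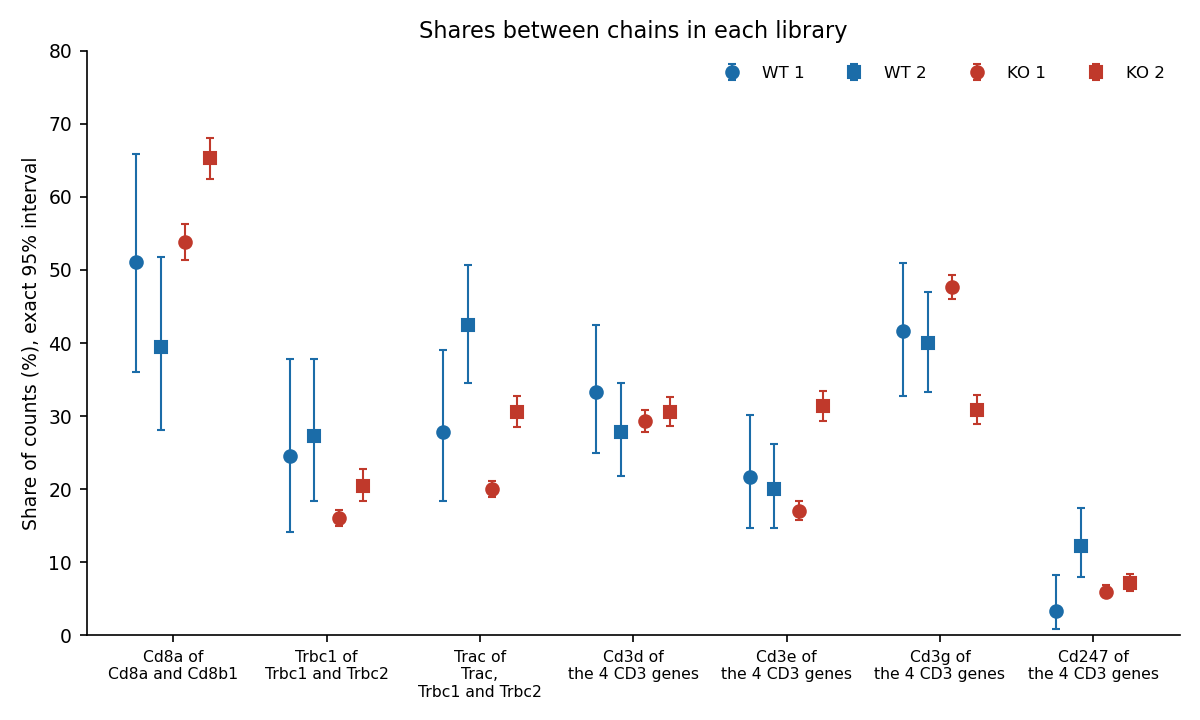
Share of counts (in percent, vertical axis) that 1 chain took of a pair or set of chains, in each library, with exact 95% intervals from counting error. The intervals of the WT libraries are wide, and KO 1 and KO 2 lie apart for Cd3e (17.1% and 31.4%) and Cd3g (47.6% and 30.9%), on either side of the WT libraries.

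The levels of the other chains were also set against the summed counts of Cd3d, Cd3e and Cd3g, which were 116, 180, 3220 and 1950 in WT 1, WT 2, KO 1 and KO 2. Per 100 CD3 counts, Trbc2 had 37.1 and 35.6 counts in WT and 110 and 53.1 in KO. Trbv12-1 had 5.17 and 6.67 against 19.97 and 23.7. Its group means of the log2 ratios differed by 1.89, compared with 1.08 for Trbc2. Cd8a had 20.7 and 15.6 against 26.2 and 37.6, and Trbc1 12.1 and 13.3 against 21.02 and 13.7. For these 4 genes the groups did not overlap, though WT 2 (13.3) and KO 2 (13.7) lay close for Trbc1. No interval was computed for these ratios, and the members were chosen on this contrast, so the separation is no test.

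For the remaining chains the groups overlapped. Trac had 18.97 and 36.1 counts per 100 CD3 counts in WT and 32.8 and 29.4 in KO, Cd8b1 had 19.8 and 23.9 against 22.5 and 19.9, and Cd247 had 3.45 and 13.9 against 6.37 and 7.69. The group means of the log2 ratios differed by 0.25 for Trac, -0.04 for Cd8b1 and 0.02 for Cd247 (KO minus WT). For Cd247 the plain means went the other way, 8.67 in WT and 7.03 in KO.

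**Figure D3:**
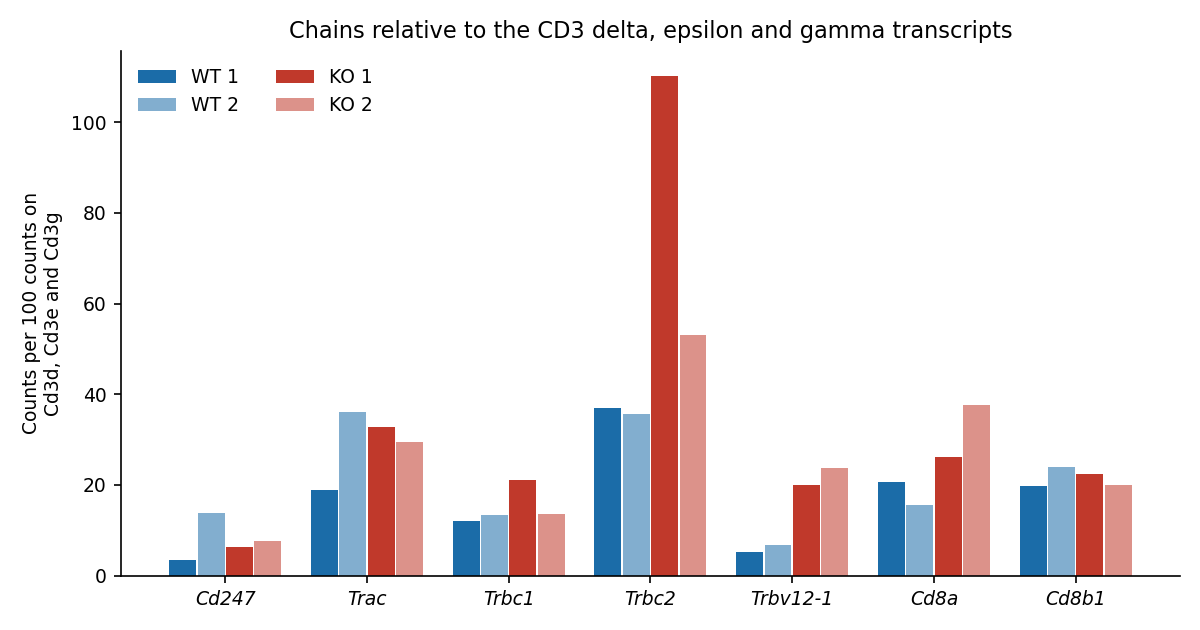
Counts of 7 chains per 100 counts on Cd3d, Cd3e and Cd3g together (vertical axis, from 0), with a bar for each library. Trbc2 in KO 1 reaches 110, and Trbv12-1 reaches 19.97 and 23.7 in KO against 5.17 and 6.67 in WT, while the bars of Trac, Cd247 and Cd8b1 overlap between the groups.

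Each T cell clone has its own rearrangement of a β V segment. The shares below are of counts on V segments alone, with Trbv12-1 chosen on its counts here, and do not measure diversity. Trbv12-1 took 6 of 12 counts on the 35 β V segments in WT 1 (50.0%, 21.1% to 78.9%) and 12 of 21 in WT 2 (57.1%, 34.0% to 78.2%). It took 643 of 650 in KO 1 (98.9%, 97.8% to 99.6%) and 463 of 480 in KO 2 (96.5%, 94.4% to 97.9%). It was the segment with the most counts in all 4 libraries.

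The other β V segments together had 6 and 9 counts in WT and 7 and 17 in KO, so they did not share the difference seen for Trbv12-1. Next after it came Trbv16 and Trbv19 in WT 1 with 3 counts each, Trbv13-2 in WT 2 with 3, Trbv3 in KO 1 with 6 and Trbv16 in KO 2 with 6. In WT 1 and KO 1 only 3 β V segments each had a count, against 7 in WT 2 and 10 in KO 2, of which only 2 in each had at least 3 counts. With every library thinned to the smallest gene total, KO 2 kept 9 and the numbers in the other libraries stayed as they were.

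The β constant genes had far more reads than these segments. Per 100 counts on Trbc1 and Trbc2, Trbv12-1 had 10.5 and 13.6 counts in WT and 15.2 and 35.6 in KO. The groups did not overlap, and the KO libraries differed by more from each other than KO 1 did from WT. How reads across a V, D and J junction fared in alignment to the unrearranged genome was not tested.

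The α V segments were nearly empty. Over 130 segments there were 0 and 1 counts in WT and 6 and 29 in KO, on 0, 1, 5 and 16 segments. The single count in WT 2 was on Trav7d-3. The most counted were Trav21-dv12 with 2 counts in KO 1 and Trav13n-4 with 7 in KO 2, followed there by Trav13-4-dv7 with 3. No α V segment thus stood beside Trac as Trbv12-1 stood beside the β constant genes.

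The constant genes of the γδ receptor, which uses the same CD3 chains, were low but present. Trdc, the δ constant gene, had 1 and 1 counts in WT and 100 and 52 in KO, a ratio of pooled normalized counts of 50.9 (exact 95% interval 13.9 to 425, which covers counting error only and not the 2.1-fold difference between KO 1 and KO 2). It passed the edgeR test (adjusted p = 0.0452) but did not with upper-quartile scaling (0.0528) or without KO 1 (0.0923). It shares 7.84% of its exonic bases with Gm43434 and Trdv5. As a share of Trdc and Trac counts it was 4.35% (0.11% to 21.9%) and 1.52% (0.0384% to 8.16%) in WT and 8.65% (7.09% to 10.4%) and 8.32% (6.28% to 10.8%) in KO, so Trac exceeded it in each library. Of the γ constant genes, Trgc4 had 5, 0, 95 and 8 counts, Trgc2 0, 7, 26 and 12, Trgc1 0, 0, 16 and 0 and Trgc3 0, 0, 0 and 2.

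Only the divergent CD3 pair has its promoters printed, because Cd3d and Cd3g are transcribed from starts close to each other. RefSeq (GRCm38.p6) gave promoters for 5 of the 10 members, Cd3d, Cd3e, Cd3g, Cd247 and Cd8a. The 250 bases before each start were searched on both strands for TGNGGT (RUNX), CAGCTG (E-box), AGGAAG (ETS) and CTTTGA (TCF), of which no 2 matches overlapped in the sequences printed. Matches are in capitals, with Cd3d at chr9:44981536-44981785 on the plus strand and Cd3g at chr9:44980432-44980681 on the minus strand, both 5′ to 3′.
Cd3d: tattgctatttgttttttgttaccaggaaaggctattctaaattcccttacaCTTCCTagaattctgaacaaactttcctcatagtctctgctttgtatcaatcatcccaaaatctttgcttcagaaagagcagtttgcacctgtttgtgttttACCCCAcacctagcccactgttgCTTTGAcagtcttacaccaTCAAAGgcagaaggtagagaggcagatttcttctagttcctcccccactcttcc
Cd3g: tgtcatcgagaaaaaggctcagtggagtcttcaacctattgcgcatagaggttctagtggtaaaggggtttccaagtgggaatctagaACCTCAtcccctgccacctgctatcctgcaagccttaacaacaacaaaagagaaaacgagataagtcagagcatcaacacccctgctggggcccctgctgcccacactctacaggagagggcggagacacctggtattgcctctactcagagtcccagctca
The Cd3d window held 1 RUNX match, 1 ETS match and 2 TCF matches, the Cd3g window 1 RUNX match. RUNX matches also stood in the windows of Cd3e and Cd247, with 2 ETS matches in Cd3e and 1 in Cd247, and no match of the 4 motifs was found for Cd8a. Of 32851 promoters of the same length, 40.1% held the RUNX letters, 29.5% the ETS letters, 13.8% the TCF letters and 13.0% the E-box letters.

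Of 10 listed surface partners of the receptor, 7 were tested, 2 passed the edgeR threshold as higher in KO and none as lower (0.549% and 0.0253% of all genes), with a median log2 fold change of 2.70 over the tested genes, where all genes had 0.05. Cd6, an adhesion receptor of T cells, had 15 and 17 counts in WT and 161 and 507 in KO (log2 fold change 3.77, SE 0.64, edgeR adjusted p = 0.0425). Without KO 2 the Cd6 difference was 2.77 on this scale. Cd28, the costimulatory receptor, had 15 and 12 against 184 and 230 (3.33, SE 0.56, edgeR adjusted p = 0.0396), but was not past the threshold without WT 2 (0.0895). The values of the 7 tested partners ran from -0.47 to 3.95, and those of the members from 3.10 to 5.38. The partner list was drawn up with earlier results of these data known, so its count past the threshold is not evidence about it.

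Cd5, an inhibitory receptor, had 9 and 3 counts in WT and 140 and 149 in KO, and Cd2, an adhesion receptor, had 38 and 88 against 577 and 613. Both stood just outside the threshold (edgeR adjusted p = 0.0523 and 0.0518) and passed it with the stricter filter (0.0462 and 0.0450), with the replicate block, with DESeq2, without a filter and without either KO library. Over these settings and with a WT library left out, the adjusted p ran from 3.04e-05 to 0.0861 for Cd5 and from 9.54e-05 to 0.564 for Cd2. Thy1, a surface glycoprotein of mouse T cells, had 43, 56, 568 and 103 counts (edgeR adjusted p = 0.248), and Cd27, a costimulatory receptor, had 15, 17, 175 and 88 (edgeR adjusted p = 0.141). Without KO 1 the log2 fold change of Thy1 was 0.42 in place of 2.23. Both genes passed the edgeR threshold without a filter, Cd27 also with DESeq2 (0.0371), and both with KO 1 as the only KO library (0.00196 for Thy1, 0.0131 for Cd27), which had 6.01 times the Thy1 level of KO 2. Cd4, the coreceptor for MHC class II, had 6, 30, 3 and 35, with a log2 fold change of -0.47 that turned to 0.87 without WT 2 and to 0.38 without KO 1. Of those not tested, Cd7 had 9, 5, 13 and 11 counts, Trat1 had 22 in KO 1 and 0 elsewhere, and Ptcra, the pre-T cell receptor chain of thymocytes, had 0 in all 4.

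Of 15 genes of proximal signaling, all were tested, with a median log2 fold change of 2.07. The edgeR threshold was passed by 5 as higher in KO and by none as lower (0.549% and 0.0253% of all genes). This list too was drawn up with earlier results of these data known, so the count is not evidence about it. Lck, the kinase that phosphorylates the ITAM motifs, had 24 and 24 counts in WT and 641 and 1539 in KO (log2 fold change 4.89, SE 0.58, edgeR adjusted p = 0.0172). Unlike 9 of the 10 receptor members, it was higher in KO 2 than in KO 1, and its log2 fold change was 4.17 without KO 2. Zap70, the kinase that binds phosphorylated ITAM motifs, had 9, 22, 280 and 440 counts (3.97, edgeR adjusted p = 0.0269), and Lat, the adaptor it phosphorylates, 14, 16, 279 and 225 (3.49, edgeR adjusted p = 0.0295). Without WT 1 both lost the call, at 0.0542 and 0.0541.

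Skap1, an adaptor in integrin activation, had 7, 9, 218 and 199 counts (log2 fold change 4.12, edgeR adjusted p = 0.0269), and Prkcq, a kinase that links the receptor to NF-κB, had 2, 5, 125 and 116 (4.51, edgeR adjusted p = 0.0321). Sh2d1a, an adaptor of SLAM family receptors, had 1, 3, 194 and 55 counts and was just outside the threshold (edgeR adjusted p = 0.0510). It passed without a filter, with the stricter filter (0.0450), with the replicate block, with DESeq2 and without WT 1, WT 2 or KO 2 (0.0156, 0.00395 and 0.00113), but not without KO 1 (0.115). Lcp2 and Vav1, which myeloid cells also use, were at -0.16 and -0.83 on the log2 scale (edgeR adjusted p = 0.908 and 0.460). Lcp2 turned to 0.24 without WT 2, and Vav1 was -0.47 without KO 1 and -1.35 with KO 1 as the only KO library (edgeR adjusted p = 0.0453, spread from WT alone).

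Of the 4 listed adaptors that carry ITAM motifs in other cells, 3 were tested and none passed the edgeR threshold, and Fcer1g and Tyrobp exceeded the CD3 chains in CPM per kilobase in every library. Fcer1g, the common γ chain of Fc receptors, had 17904 and 15972 counts in WT and 6851 and 9334 in KO (log2 fold change -1.67, SE 0.55, edgeR adjusted p = 0.240, DESeq2 adjusted p = 0.00921). Per kilobase it stood at 5315 ± 1148 CPM in WT and 1669 ± 262 in KO (SD, n = 2 each), above every receptor member in both. Tyrobp, the adaptor of several myeloid and NK cell receptors, had 5128, 5661, 4482 and 4006 counts (edgeR adjusted p = 0.440). The B cell receptor chain Cd79b had 61, 182, 12 and 73 (edgeR adjusted p = 0.300, but 0.0313 without a filter), and its partner Cd79a 0, 0, 7 and 3. With KO 1 as the only KO library and the spread from WT alone, Fcer1g and Cd79b passed the edgeR threshold as lower (adjusted p = 0.0241 and 0.0144), and the log2 fold change of Cd79b ran from -3.82 to -1.30 with a library left out.

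**Figure D4:**
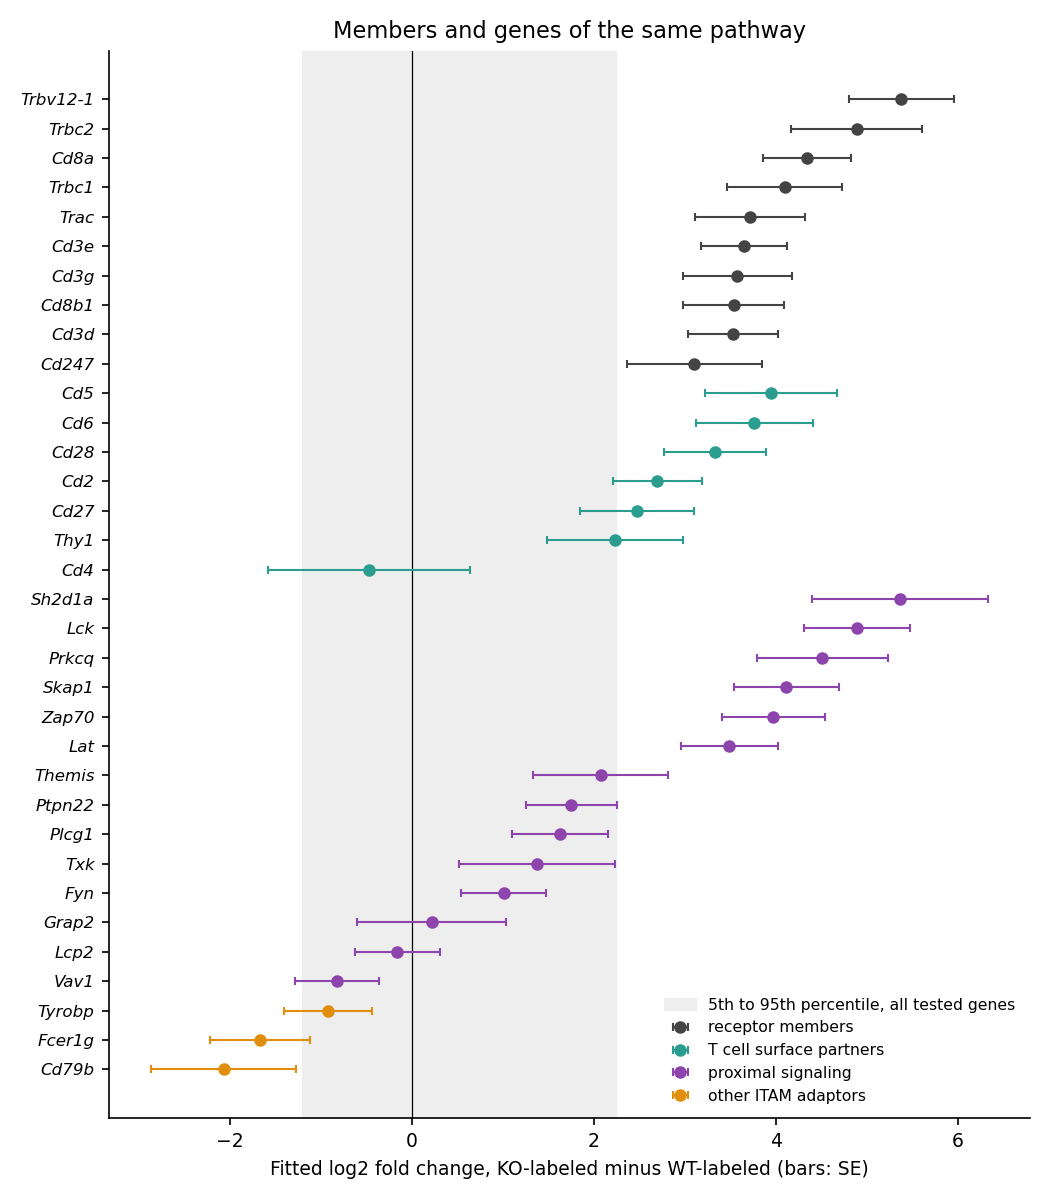
Fitted log2 fold change (KO minus WT, horizontal axis, with SE bars) of the members and of the tested surface partners, proximal signaling genes (1 left out) and other ITAM adaptors, with the 5th to 95th percentile of all genes tested (-1.20 to 2.24) shaded. All 10 members, which were chosen on this contrast, lie to the right of the shaded range, and the 3 other ITAM adaptors lie below 0.

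Markers of other cells moved with the labels to different degrees, and their part in the members' values was not tested. The 12 macrophage markers took 2.63%, 3.64%, 2.12% and 2.53% of gene counts in WT 1, WT 2, KO 1 and KO 2. Much of that sum was Lyz2, with 29370, 57521, 67802 and 58896 counts, whereas 10 of the 12 had a log2 fold change below 0 (median over the 12 of -1.13, none past the edgeR threshold). The 7 markers of type 1 dendritic cells, cells of which some carry CD8 α, took 0.0860%, 0.112%, 0.0869% and 0.0887%. Most of that sum was Irf8 (1923, 1698, 1096 and 2708 counts) and Naaa (1076, 2074, 2262 and 1454), which other cells also express, while the more specific Xcr1 had 0, 14, 13 and 20 and Clec9a 1, 8, 17 and 11. Of the 6 tested, 5 had a log2 fold change below 0 (median over the 6 of -0.58) and none passed the edgeR threshold. The 6 markers of plasmacytoid dendritic cells took 0.00112%, 0.00244%, 0.00583% and 0.00308%. The 7 melanoma markers took 0.0217% and 0.0254% in WT and 0.232% and 0.125% in KO, and the 7 of fibroblasts or endothelium 0.00207% and 0.00192% against 0.148% and 0.0203%. Of these, 1 melanoma marker of 7 tested and 3 stromal markers of 5 tested passed the edgeR threshold as higher in KO (0.549% of all genes). The receptor members were thus not the only set of genes that was higher in both libraries labeled KO.

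Markers of other lymphocytes were counted in the same way. Those of CD4+ T cells had 512 and 407 counts in WT, where the 10 members had 252 and 441. In KO these markers had 253 and 315, where the members had 10917 and 5560. The 7 NK cell markers had 0, 11, 111 and 12 counts, of which Klre1 had 0, 7, 104 and 10, and Klra8 and Klra9 were at 0 in all 4. The 5 B cell markers had 64, 182, 21 and 80 counts, mostly Cd79b, with Pax5 at 0 in all 4. The 4 markers of CD4+ T cells took 0.0127% and 0.00955% of gene counts in WT and 0.00565% and 0.00585% in KO, with none of the 3 tested past the edgeR threshold. Nearly all of this was Zbtb7b (360, 218, 128 and 141 counts) and Foxp3 (146, 156, 120 and 132), while Cd40lg had 0, 3, 2 and 7 and Cd4 was not lower in both KO libraries.

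Likeness of pattern was measured as the distance between log2 CPM profiles, centred over the 4 libraries, to the mean profile of the members other than Trbv12-1. Cd8b1 was nearest to that mean (0.306), and Cd247 and Trbc2 were farthest (1.11 each). Among 10425 other genes the nearest, all but Ltb with 5 or fewer counts in each WT library, were Ndc80, a kinetochore gene (0.0555), Dpp4, the surface peptidase CD26 (0.202), Gm43434 (0.204), Icos, a costimulatory receptor (0.359), and Ltb, lymphotoxin β (0.360). Ltb had 20 and 45 counts in WT and 668 and 375 in KO, Icos 2, 4, 131 and 52, Dpp4 2, 5, 114 and 59, Ndc80 1, 3, 89 and 50, and Gm43434 0, 1, 48 and 32. At such counts the WT side of a profile depends on the prior count added before taking logs, so the order among these genes is not firm.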

How the data were processed

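RNA-seq of polyadenylated RNA (NEBNext Ultra II) from 4 libraries was used. The tables deposited for each library hold raw, whole-number counts by gene symbol, and the submitters' processing notes name HISAT2 2.1.0, mm10 and HTSeq 0.11.0. The annotation and strand setting were not given in the sources used here. The 5 summary lines of each table were left out of library sizes, and reads on genes were 20.5%, 22.8%, 22.3% and 28.8% of all reads in WT 1, WT 2, KO 1 and KO 2. Of the symbols, 53292 of 55367 (96.3%) matched GENCODE M21.

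Groups came from the titles. KO was compared with WT in edgeR 4.0.16 under R 4.3.3 (filterByExpr with minimum counts of 10 and 15 in total, TMM factors, glmQLFit and glmQLFTest, 11837 genes, 68 past a Benjamini-Hochberg adjusted p of 0.05, and 1619 with p under 0.05 before adjustment). Fold changes used a prior count of 0.125, and the SE was derived from the F statistic. Normalized CPM used TMM-scaled gene totals. Shares had exact Clopper-Pearson 95% intervals (scipy 1.17.1). These cover counting error only. Nothing in the labels says that replicates were separate animals, so p-values measure the spread between these libraries.

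The members and gene lists were chosen with earlier results of these data known. Named were all members, genes of the partner, signaling, γδ and ITAM adaptor lists, the 2 most counted V segments of each kind per library (ties and Trbv12-2 were added after their values were seen), and the 5 genes of at least 20 mean counts with the nearest profile. Some list genes are counted in their lists but not reported here by name. The code was tested on simulated data. Alternatives were RLE and upper-quartile factors, other filters, DESeq2 1.42.0, a replicate block, a prior count of 2, counts per kilobase, pooled shares, thinning and each library left out.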

Additional observations from a re-analysis of the deposited data

How the results depend on the processing

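The members' median log2 fold change stayed between 3.15 and 4.28 in all settings tried. The number of genes past the threshold was less steady. It was 68 as reported, 583 without a filter, 110 with at least 20 counts in 2 libraries, 377 with DESeq2, 215 with a replicate block and 647 with the crossed block, and 113 to 1249 with a library left out (1249 without KO 2, 228 without WT 2, 123 without KO 1 and 113 without WT 1). Split into higher and lower in KO, these were 65 and 3 as reported, 314 and 63 with DESeq2, 505 and 78 without a filter, 99 and 24 without KO 1 and 725 and 524 without KO 2. Surface partners past it numbered 2 as reported, 6 without a filter, 4 with the stricter filter, 5 with DESeq2, 4 with the replicate block, 6 with the crossed block, and 1 to 6 with a library left out (1 without WT 2, 6 without KO 2). Signaling genes numbered 5 as reported, 8 with the crossed block and 4 to 9 with a library left out (9 without KO 2). The labels do not say whether the numbers in the titles pair the libraries. The deviations of WT 1 and KO 1 were weakly and negatively correlated across genes (r = -0.18), which does not settle it. The crossed pairing was added for this reason after seeing the data. The cause of these differences was not tested.

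Per kilobase of merged exons, the Cd8a share became 25.4% in WT and 37.8% in KO, Cd3d 46.8% and 46.3%, Cd247 3.46% in KO, Cd3e 14.2% in WT and Cd3g 34.8% in WT, by the lengths alone. With at least 3 counts required, β V segments numbered 3 in WT 1 and 2 in each of WT 2, KO 1 and KO 2, so the higher numbers of WT 2 and KO 2 rested on segments with 1 or 2 counts, and α V segments 0 in WT 2, 0 in KO 1 and 2 in KO 2. With a library left out, log2 fold changes ran from -3.00 to 0.87 for Cd4, from -0.55 to 0.24 for Lcp2 and from -1.28 to 1.36 for Grap2, changing direction. A prior count of 2 and the other scaling factors changed neither list's count. Members of WT libraries had 4 to 82 counts each, which limits their ratios.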

Other observations

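The J segments of the receptor loci, which the comparisons above did not use, had more counts under the KO label, as the members did, and were not tested. The 14 β J segments had 1 and 0 counts in WT 1 and WT 2 and 26 and 10 in KO 1 and KO 2, and the 60 α J segments had 0 and 1 against 15 and 8. V segments of the δ locus had 11 counts in KO 1 on 3 segments and 0 in the other libraries, and those of the γ locus had 0, 0, 2 and 4.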
